A study of Saccharomyces cerevisiae with 8 samples.

Results

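The 10 genes described here are the G1 cyclins CLN1 and CLN2, the S-phase cyclins CLB5 and CLB6, the mitotic cyclins CLB1 to CLB4, and the CDK inhibitors SIC1 and FAR1 of budding yeast. They were taken by their systematic names from a table of 11844 features, of which 10392 entered the tests, and all 10 passed the filter on low values. RNA came from BY4741, a haploid MATa laboratory strain, and every group carried his3Δ1, leu2Δ0, met15Δ0 and ura3Δ0. The WT groups had no further change, and the upf1 groups had UPF1 replaced by kanMX4. Upf1 is the helicase at the centre of nonsense-mediated decay (NMD). Exponential cultures in YPD received cycloheximide (CHX) at 100 µg/ml, which stops translation elongation, or the same volume of the solvent DMSO, for 15 min. The 4 groups, WT DMSO, WT CHX, upf1 DMSO and upf1 CHX, had 2 libraries each, and the series' design text calls them biological replicates. Before library construction all RNA was treated with Terminator, an enzyme that eats RNA from a 5′ monophosphate and leaves capped molecules whole. No comparison with undigested RNA was made here, and a rise can mean more RNA or a larger capped share. In these bulk cultures, fewer cells in a phase and less RNA per cell cannot be told apart, and the labels give no step that would synchronise cells.

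In budding yeast a single kinase, Cdc28, drives the cell cycle by binding different cyclins in turn. Cln3 starts the transcription programme of the SBF and MBF factors in G1, which makes CLN1, CLN2, CLB5 and CLB6. Clb5 and Clb6 fire replication origins, and Clb1 to Clb4 drive mitosis. Sic1 holds the Clb-bound kinase inactive until it is destroyed at the end of G1, and Far1 blocks the Cln-bound kinase when a MATa cell senses α-factor.

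Sites that match known factors were read from the RefSeq sequence of the R64 genome, in the 700 bases before each start codon and on both strands. The letters searched were CACGAAA for SBF (the SCB motif), ACGCGT for MBF (MCB), GTAAACA for forkhead factors and TGAAACA for the pheromone factor Ste12. The last 2 end in the same letters but cannot match the same bases. The matches below are shown because they set the G1 and S-phase cyclins side by side, each as 30 bases on the gene's strand with the motif in capitals. Among 5999 upstream windows of that length, 9.53% held an SCB and 0.500% held at least 2. An MCB was in 6.98%, and 0.70% held at least 2.
CLN2, SCB 581 bases before the start codon, chrXVI:67177-67206, minus strand: caacggaagtaCACGAAAttcgtcccgctg
CLN2, SCB 538 bases before the start codon, chrXVI:67134-67163, minus strand: cgtgttctagtCACGAAAcgcgccaaaaac
CLN1, MCB 606 bases before the start codon, chrXIII:662026-662055, plus strand: agcctgcaagagACGCGTtcaaggaagaat
CLB6, MCB 403 bases before the start codon, chrVII:706887-706916, minus strand: aatagcagttttACGCGTaccacaaaattt
CLB6, MCB 377 bases before the start codon, chrVII:706861-706890, minus strand: atttaacgaccaACGCGTattcttcgcgtt
SIC1, SCB 7 bases before the start codon, chrXII:286790-286819, plus strand: gacccttgaagcagggactattaCACGAAA

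CLN2 and CLB6 thus each held a pair of matches, CLN1 held 1 MCB, and CLB5 held neither motif in this exact spelling. The inhibitor gene SIC1 held 1 SCB, which lies only 7 bases before its start codon. TGAAACA was found once each before CLN2, 429 bases before its start codon, and CLB4, 153 bases before, against 16.9% of windows. Forkhead letters were found once each before CLB1, CLB4, CLB6 and FAR1, against 13.6% of windows. None of these motifs was found before CLB2 or CLB3. A match here is a run of letters and not a tested site.

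The 8 cyclins form 4 pairs of close relatives, so it matters whether their reads can be told apart. CLN1 and CLN2 were identical at 68.8% of aligned coding bases, CLB1 and CLB2 at 69.7%, CLB3 and CLB4 at 66.4%, and CLB5 and CLB6 at 66.2%. The longest run shared by a pair was 17 bases for CLN1 with CLN2 and for CLB1 with CLB2, and 15 bases for the other pairs. No pair shared a run of 50 bases. How multi-mapping reads were handled is not given in the sources used here. For the G1 pair and the main mitotic pair, 120 aligned coding bases around the longest shared run are printed, with the identical bases in capitals. In these windows 93 of 120 bases were the same for the G1 pair and 81 of 120 for the mitotic pair.
CLN1, coding bases 505 to 624, chrXIII:663148-663267, plus strand: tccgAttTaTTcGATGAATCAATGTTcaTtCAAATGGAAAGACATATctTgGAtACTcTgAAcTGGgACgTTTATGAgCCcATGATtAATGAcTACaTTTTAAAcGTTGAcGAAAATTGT
CLN2, coding bases 511 to 630, chrXVI:65985-66104, minus strand: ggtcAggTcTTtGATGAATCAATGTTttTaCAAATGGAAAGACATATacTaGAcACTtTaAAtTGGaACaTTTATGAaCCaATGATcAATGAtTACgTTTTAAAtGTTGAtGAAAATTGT
CLB1, coding bases 901 to 1020, chrVII:704536-704655, plus strand: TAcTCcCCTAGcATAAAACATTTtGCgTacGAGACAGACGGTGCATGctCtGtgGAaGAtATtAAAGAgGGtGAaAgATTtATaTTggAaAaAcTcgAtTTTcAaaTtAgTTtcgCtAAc
CLB2, coding bases 961 to 1080, chrXVI:772613-772732, plus strand: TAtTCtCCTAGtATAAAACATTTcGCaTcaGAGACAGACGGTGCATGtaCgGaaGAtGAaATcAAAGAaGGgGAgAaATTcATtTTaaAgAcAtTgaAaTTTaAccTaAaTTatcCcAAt

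Mitotic and S-phase cyclins also sit next to each other in the genome. CLB2 (chromosome XVI, 771653 to 773128, plus strand) converges on CLB5 (773875 to 775182, minus strand), with 746 bases between their coding spans. CLB1 (chromosome VII, 703636 to 705051, plus strand) converges on CLB6 (705359 to 706501, minus strand), with 307 bases between. The feature lengths recovered from the densities exceeded the coding spans by 797 bases for CLB2, 277 for CLB5, 361 for CLB1 and 226 for CLB6. On which side the added bases lie is not known, and whether the counted features overlap was not tested. The libraries were strand-specific per the series' design text, but whether strand was used in counting is not given in the sources used here. The other coding spans lie apart. CLN1 is on XIII (662644 to 664284, plus strand) and CLN2 on XVI (64977 to 66614, minus strand). CLB3 is on IV (176773 to 178056), CLB4 on XII (562008 to 563390) and SIC1 on XII (286820 to 287674), all on the plus strand, and FAR1 is on X (123836 to 126328, minus strand).

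Values are scaled reads per kb, the deposited density expressed per kb, on the authors' normalization. The 8 libraries held 1311198 to 5691404 recovered reads, of which 120 to 1153 fell on the 10 genes. NAM7 (YMR080C), the name under which UPF1 is listed, gave 14.8 and 15.2 in WT and 5.94 and 2.80 in upf1 with DMSO, and 83.5 and 44.8 in WT and 13.5 and 10.1 in upf1 with CHX. The drop in DMSO passed the test (log2 change -1.46 ± 0.39, SE, limma adjusted p = 0.0439), but not in any fit that left out 1 library (adjusted p of 0.053 to 0.138). HIS3, of which his3Δ1 removes only a part, was at 37.6 to 37.8 in WT DMSO and 183 to 249 in WT CHX. In upf1 it was at 88.4 to 119 in DMSO and 270 to 311 in CHX. LEU2, MET15 and URA3 were looked up by symbol, were not found among the matched protein-coding genes, and were not analysed here. All 7 MATa marker genes were present, with a summed level of 6023 to 29196. The 4 MATalpha markers summed to 10.1 to 108, higher in CHX than in DMSO within each strain, and the α-factor gene MF(ALPHA)1 had 0 reads in both WT DMSO libraries. Against this table, CHX calls were nearly all upward: of the 10392 features tested, 7257 were higher and 11 lower in WT, and 6666 higher and 16 lower in upf1. Setting all libraries to a common median of the protein-coding genes, called median scaling below, lowers every CHX change by 1.31 in WT and 1.37 in upf1 on the log2 scale, and changed those splits to 731 higher and 340 lower, and 135 higher and 198 lower. The same step lowers the upf1 changes by 0.63 in DMSO, where 1524 higher and 41 lower became 284 and 101, and by 0.68 in CHX.

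**Figure D1:**
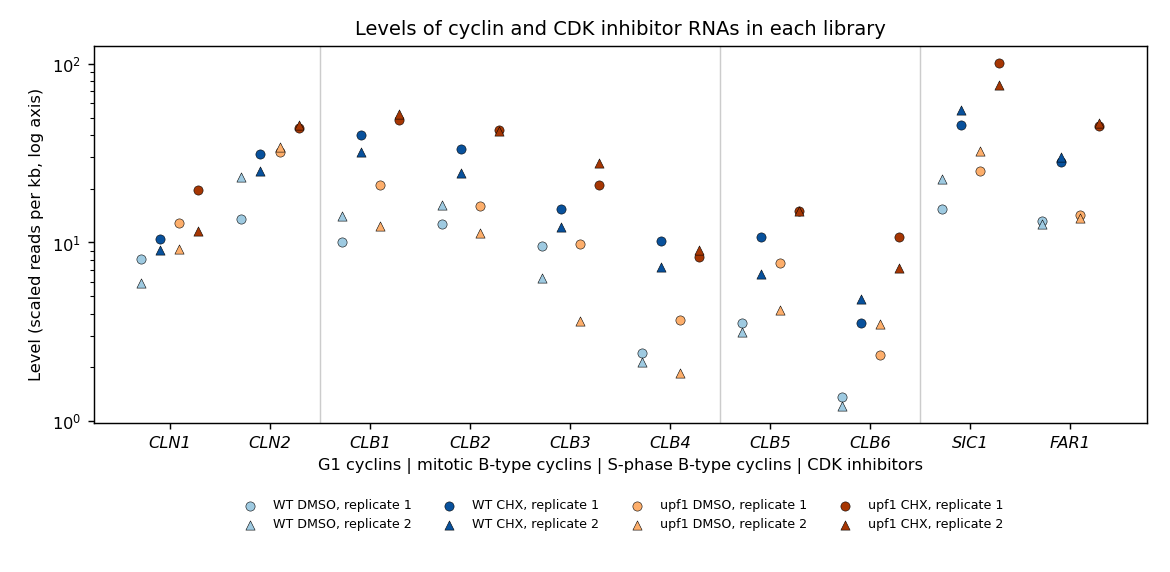
Level of each gene in each of the 8 libraries (y axis, scaled reads per kb, log axis; circles are replicate 1 and triangles replicate 2), grouped by role. SIC1 reached 101 in upf1 CHX while CLB6 was at 1.37 and 1.22 in WT DMSO, and both WT CHX libraries lay above both WT DMSO libraries for all 10 genes on the authors' scaling.

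CHX raised most of these genes on the authors' scaling, and the G1 cyclins were the pair that passed the test in neither strain. In WT, 7 of 10 rose (CLB1, CLB2, CLB4, CLB5, CLB6, SIC1 and FAR1), by log2 changes of 0.90 to 1.45, and CLN1, CLN2 and CLB3 did not pass the test. In upf1, 8 of 10 rose (all 6 CLB genes, SIC1 and FAR1), by 1.14 to 1.68, and CLN1 and CLN2 did not pass. These counts stand against a background of 69.8% of tested features called higher in WT and 64.1% in upf1. Of the 5517 protein-coding genes tested, 3779 were called higher in WT and 4083 in upf1. Shares this near the background are no result about these genes. With median scaling 0 of 10 were called in either strain, against 10.3% of features in WT and 3.2% in upf1. With it 8 of 10 changes in WT (CLB4 at only -0.0025) and 5 of 10 in upf1 fell below 0. On the authors' scaling 7 of 10 in WT and 5 of 10 in upf1 lay below the protein-coding median change. A scaling on medians puts many genes below 0, and the share of all features below 0 is not given here. These counts are therefore no result about the 10 genes. Both CHX libraries lay above both DMSO libraries for 10 of 10 genes in WT and 9 of 10 in upf1, against 85.5% and 86.7% of all features. The median change of the 10 genes was 0.94 in WT and 1.36 in upf1, beside 1.23 and 1.25 for the 5517 protein-coding genes tested.

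CLN1 and CLN2 encode the cyclins that commit cells to division and start budding. CLN1 (YMR199W) gave 8.10 and 5.94 in the WT libraries with DMSO and 10.5 and 9.08 with CHX, and in upf1 12.8 and 9.23 with DMSO and 19.6 and 11.6 with CHX. The WT groups did not overlap, and the upf1 CHX and upf1 DMSO libraries did. The CHX change was 0.39 ± 0.34 (log2, SE) in WT and 0.41 ± 0.34 in upf1, with limma adjusted p-values of 0.306 and 0.286. CLN2 (YPL256C), the more abundant of the pair in all 8 libraries, gave 13.5 and 23.3 in WT with DMSO, where CHX brought 31.1 and 25.0, and in upf1 32.1 and 34.4 with DMSO and 43.8 and 45.4 with CHX. No 2 groups compared here overlapped for CLN2, although the WT CHX library at 25.0 was close to the WT DMSO library at 23.3. Its CHX change was 0.59 ± 0.29 in WT (limma adjusted p = 0.100) and 0.40 ± 0.29 in upf1 (0.239). Without WT DMSO replicate 2 the CLN2 change in WT passed the test (adjusted p = 0.029). Among protein-coding genes the CHX changes of CLN1 and CLN2 stood at percentiles 9.33 and 15.9 in WT and 7.0 and 6.76 in upf1. Relative to the protein-coding median they were -0.84 and -0.64 in WT and -0.83 and -0.84 in upf1.

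CLB5 and CLB6, the S-phase cyclins, had the fewest reads of the CLB genes together with CLB4. CLB5 (YPR120C), which supports origin firing throughout S phase, stood at 3.54 and 3.15 with DMSO and 10.7 and 6.66 with CHX in WT, and at 7.65 and 4.21 with DMSO and 15.0 and 15.1 with CHX in upf1. No 2 groups compared overlapped. CLB5 rose with CHX by 0.97 ± 0.34 in WT (limma adjusted p = 0.0356) and 1.14 ± 0.34 in upf1 (0.0234). CLB6 (YGR109C), its shorter-lived partner, was at 1.37 and 1.22, 3.53 and 4.82, 2.36 and 3.48, and 10.7 and 7.21 in the same order of groups. It was the lowest member in 6 of 8 libraries, and its groups did not overlap either. CHX raised it by 0.90 ± 0.34 in WT (limma adjusted p = 0.0448) and 1.15 ± 0.34 in upf1 (0.0221). The WT call of CLB6 was lost with voom, a limma fit on the recovered reads (adjusted p = 0.0539), with a pseudocount 4 times higher, where the change was 0.39 (0.0763), and with the replicate number as a block (0.0556). It was also lost without any 1 of the 4 WT libraries (0.0699 to 0.131) and without either upf1 DMSO library (0.055 and 0.057). Its WT value rests on 14 reads against 3, a ratio of 3.33 with an exact 95% interval of 0.929 to 18.1 that covers counting error only.

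CLB1 and CLB2, the main mitotic cyclins, rose in both strains on the authors' scaling. CLB1 (YGR108W) stood at 10.0 and 14.0 with DMSO and 40.1 and 31.9 with CHX in WT, and at 20.9 and 12.3 with DMSO and 48.4 and 52.6 with CHX in upf1. The CHX libraries stood well clear of the DMSO libraries in both strains, and the DMSO groups of the strains overlapped. CLB1 rose with CHX by 1.45 ± 0.31 in WT (limma adjusted p = 0.00546) and 1.53 ± 0.31 in upf1 (0.00709). CLB2 (YPR119W), the cyclin that cells depend on most for mitosis, was at 12.8 and 16.1, 33.5 and 24.4, 16 and 11.3, and 42.7 and 42.0 in that order. Its DMSO groups overlapped, while its upf1 CHX libraries were nearly equal and the highest. CHX raised it by 0.90 ± 0.28 in WT (limma adjusted p = 0.0233) and 1.52 ± 0.28 in upf1 (0.00566).

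CLB3 and CLB4 act earlier, on the spindle and late S phase. CLB3 (YDL155W) stood at 9.53 and 6.36 with DMSO and 15.4 and 12.2 with CHX in WT, and at 9.78 and 3.64 with DMSO and 21 and 27.8 with CHX in upf1. Its upf1 DMSO libraries spanned both WT DMSO values. The CHX change was 0.68 ± 0.41 in WT (limma adjusted p = 0.162), not past the test, and 1.68 ± 0.41 in upf1 (0.0113), where it rose. CLB4 (YLR210W) was at 2.42 and 2.16, 10.2 and 7.27, 3.66 and 1.85, and 8.30 and 9.08 in that order. The strains overlapped in both DMSO and CHX, and its libraries separated by treatment. CLB4 rose with CHX by 1.31 ± 0.34 in WT (limma adjusted p = 0.0105) and 1.19 ± 0.34 in upf1 (0.0184).

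The inhibitors rose in both strains on the authors' scaling. SIC1 (YLR079W) stood at 15.4 and 22.5 with DMSO and 45.6 and 54.9 with CHX in WT, and at 25.0 and 32.3 with DMSO and 101 and 75.9 with CHX in upf1. No 2 groups compared overlapped, and SIC1 had the highest mean of the 10 genes in every group except upf1 DMSO. SIC1 rose with CHX by 1.33 ± 0.29 in WT (limma adjusted p = 0.00526) and 1.56 ± 0.29 in upf1 (0.00551). FAR1 (YJL157C) was at 13.1 and 12.7, 28.1 and 30.2, 14.3 and 13.8, and 44.8 and 46.6 in that order. Its groups did not overlap, and its replicates were close, at 12.9 ± 0.317 (SD, n = 2) in WT DMSO and 14.0 ± 0.353 (SD, n = 2) in upf1 DMSO. CHX raised it by 1.06 ± 0.23 in WT (limma adjusted p = 0.00517) and 1.58 ± 0.23 in upf1 (0.00316).

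These CHX calls differed in how much they rested on single libraries. CLB1, SIC1 and FAR1 in WT, and CLB1, CLB2, SIC1 and FAR1 in upf1, stayed called in every fit that left out 1 library. In WT the call of CLB5 was lost with voom (adjusted p = 0.0545), in a limma fit of only the 4 libraries compared (0.0676) and in 5 of the 8 fits without 1 library. That of CLB2 was lost with only the 4 libraries (0.0558) and in 2 of the 8. That of CLB4 was lost in 1 of the 8, without WT CHX replicate 1, where the change was 1.11. CLB3, CLB4, CLB5 and CLB6 each lost the call in upf1 in 3 of the 8 (adjusted p of 0.052 to 0.126). Fewer members were called in WT without any 1 of the WT libraries, and in upf1 without any 1 of the upf1 libraries. Fewer of all features were called in those fits too, so the losses are no result about these genes. The CHX comparisons share no library with each other, but each shares its libraries with the comparisons of the strains.

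**Figure D2:**
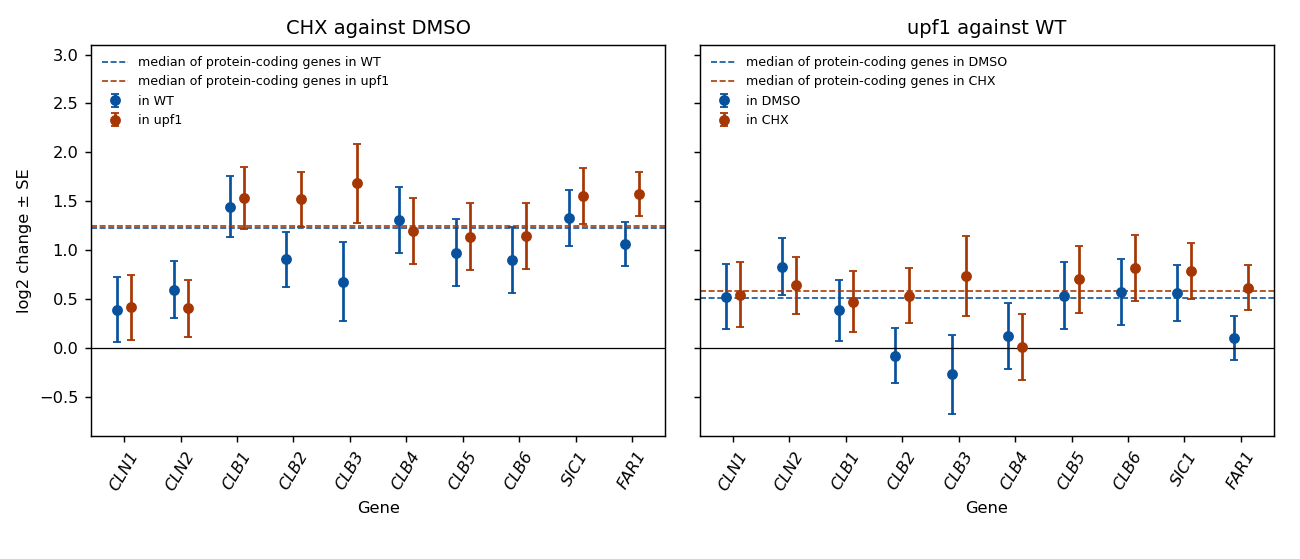
Log2 change with its SE for each gene (y axis; x axis, genes by role), for CHX against DMSO on the left and upf1 against WT on the right, on the authors' scaling. Dashed lines mark the median of the protein-coding genes, at 1.23 and 1.25 on the left and 0.51 and 0.58 on the right. CLN1 and CLN2 lie below both lines on the left, where 7 of 10 genes in WT and 5 of 10 in upf1 lie below the line of their strain. With median scaling 8 of 10 CHX changes in WT and 5 of 10 in upf1 were below 0, counts that are no result about these genes.

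No change of these genes between the strains was called, which for 10 genes against the shares below is no result about them. In DMSO 0 of 10 passed the limma test in either direction, against 15.1% of all features, with 1 of 10 at an unadjusted p under 0.05 and 0 called by voom, against 14.3% of features. That gene was CLN2, at 33.2 ± 1.64 (SD, n = 2) in upf1 and 18.4 ± 6.91 (SD, n = 2) in WT, a log2 change of 0.83 ± 0.29 with a limma adjusted p of 0.0978 and one of 0.052 with voom. The next were CLB6 at 0.57 ± 0.34, SIC1 at 0.56 ± 0.29, CLB5 at 0.54 ± 0.34 and CLN1 at 0.52 ± 0.34, with limma adjusted p-values of 0.224 to 0.325. CLB6 had 9 reads against 3 there, a ratio of 2.19 with an exact 95% interval of 0.547 to 12.6. Such intervals excluded 1 for CLN2 (ratio 1.95, 1.45 to 2.65) and SIC1 (1.58, 1.02 to 2.50), and spanned 1 for all the other members. They cover counting error only. The mitotic cyclins gave lower values: CLB1 0.39 ± 0.31, CLB4 0.12 ± 0.34, CLB2 -0.08 ± 0.28 and CLB3 -0.27 ± 0.41, and FAR1 gave 0.10 ± 0.23. Both upf1 libraries lay above both WT libraries for 6 of 10 genes, against 52.7% of features. The median change was 0.45, beside 0.51 for protein-coding genes, and 5 of 10 changes lay below that 0.51. With median scaling 9 of 10 changes fell below 0, all except CLN2. That step lowers each change by 0.63, more than the 0.51, so the count of 9 is no result about these genes.

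In CHX, too, 0 of 10 genes passed the limma test between upf1 and WT. All features gave 0.0866% called, 3 of 10 genes had an unadjusted p under 0.05, and voom called 0 of 10, against 12.2% of features. Those 3 were CLB6 (0.82 ± 0.34, limma adjusted p = 0.205), SIC1 (0.78 ± 0.29, 0.171) and FAR1 (0.62 ± 0.23, 0.172). CLB3 gave 0.74 ± 0.41, CLB5 0.70 ± 0.34, CLN2 0.64 ± 0.29, CLN1 0.55 ± 0.34, CLB2 0.54 ± 0.28, CLB1 0.47 ± 0.31 and CLB4 0.01 ± 0.34. The exact 95% intervals from reads, which cover counting error only, excluded 1 here for CLN2, CLB1, CLB2, CLB3, CLB5, SIC1 and FAR1. They spanned 1 for CLN1, CLB4 and CLB6. The share of all features with such intervals is not given here, so they are no result about these genes. Both upf1 libraries lay above both WT libraries for 9 of 10 genes, all except CLB4, against 51.9% of features. The median change of 0.63 was beside 0.58 for protein-coding genes, and 4 of 10 changes lay below that 0.58. With median scaling, which lowers each change by 0.68, 6 of 10 changes fell below 0, and that count is no result about these genes. The 4 comparisons reuse the same 8 libraries, so a gene's values in them are not independent of each other.

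The difference between the CHX changes of the strains was tested as an interaction. It was called for 0 of 10 genes by limma and for 0% of all features, with 0 of 10 genes at an unadjusted p under 0.05 and 0 of 10 called by voom, against 0.00962% of features. CLB3 was the member with the smallest p, with an interaction of 1.00 ± 0.57 (limma adjusted p = 0.655). For CLB3 the value was 0.47 without upf1 DMSO replicate 2, whose level was the 3.64 given above, and 1.54 without upf1 DMSO replicate 1. The other 9 genes lay between -0.19 and 0.61. CLB3 was called in upf1 and not in WT, but a difference between the strains was not shown.

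The make-up of the summed level was read within each library, so that no factor per library can alter it. CLN1 and CLN2 together were 24.1% and 27.2% of the summed level of the 10 genes with DMSO in WT, against 18.2% and 16.5% with CHX. In upf1 they were 31.0% and 34.5% with DMSO, against 17.8% and 17.1% with CHX. All 4 CHX libraries were below all 4 DMSO libraries. The ratio of CLN1 plus CLN2 to CLB1 plus CLB2 was 0.95 and 0.969 in WT DMSO and 1.21 and 1.84 in upf1 DMSO, against 0.564 and 0.605 in WT CHX and 0.696 and 0.603 in upf1 CHX. These shares describe the same values as the changes above and carry no test. SIC1 and FAR1 made up 27.2% to 36.4% of the sum in the DMSO libraries and 32.2% to 41.2% in the CHX libraries, and those ranges overlapped. The mitotic CLB genes, the largest class in 5 of 8 libraries, made up 23.0% to 38.7% in DMSO and 33.9% to 43.4% in CHX, which overlapped too. The S-phase cyclins made up 4.06% to 7.24% across all 8 libraries.

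**Figure D3:**
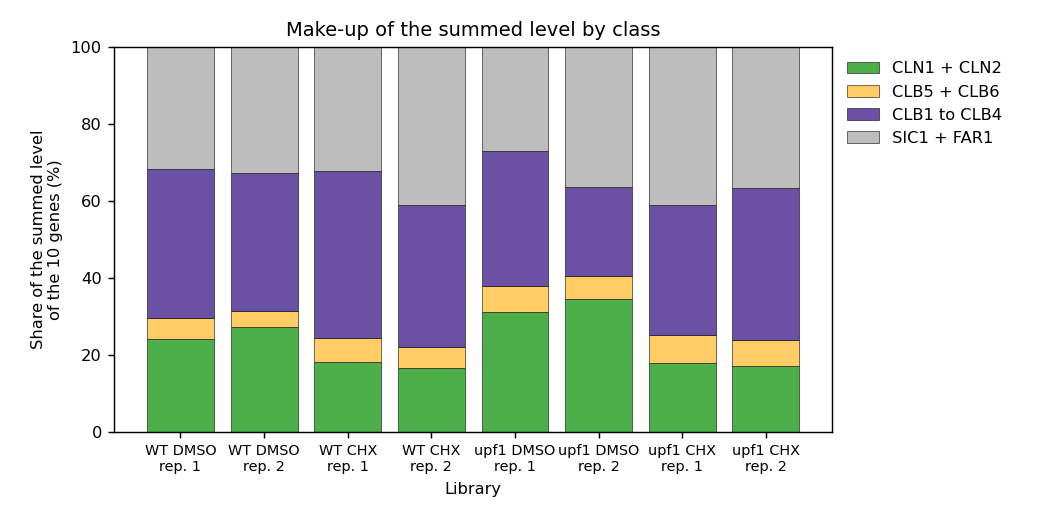
Share of the summed level of the 10 genes (y axis, %) taken by each class in each of the 8 libraries (x axis). The green segment, CLN1 plus CLN2, runs from 24.1% to 34.5% in DMSO and from 16.5% to 18.2% in CHX.

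Within the paralog pairs, CLN2 exceeded CLN1 in every library, by a ratio of 1.67 to 3.92. CLB2 exceeded CLB1 in both WT DMSO libraries, with ratios of 1.28 and 1.15, and was below it in the other 6, at 0.764 to 0.918. CLB3 exceeded CLB4 at ratios of 1.51 to 3.93, lowest in the WT CHX libraries at 1.51 and 1.68. CLB5 exceeded CLB6 at ratios of 1.21 to 3.24, whose spread within groups was as wide as that between them. By mean level in WT DMSO the order was SIC1, CLN2, CLB2, FAR1, CLB1, CLB3, CLN1, CLB5, CLB4 and CLB6. Neighbours among the first 5 did not separate, nor did CLB3 and CLN1. CLB1 lay above CLB3, CLN1 above CLB5, CLB5 above CLB4 and CLB4 above CLB6 in both libraries. In upf1 CHX the order was SIC1, CLB1, FAR1, CLN2, CLB2, CLB3, CLN1, CLB5, CLB6 and CLB4. SIC1 lay above CLB1, and CLB1 above FAR1, in both libraries, and CLN2 came after FAR1. In WT CHX and upf1 DMSO the highest means were those of SIC1, 50.3 ± 6.56 (SD, n = 2), and CLN2, 33.2 ± 1.64 (SD, n = 2).

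CLN3 and CDC28, the upstream cyclin and the kinase itself, differed from each other. CLN3 stood at 143 and 145 with DMSO and 153 and 143 with CHX in WT, and at 132 and 133 with DMSO and 184 and 165 with CHX in upf1, above every member in all 8 libraries. Its WT libraries were close to equal with and without CHX. Its CHX change was 0.04 ± 0.18 in WT (limma adjusted p = 0.851, percentile 3.05 of protein-coding genes) and 0.39 ± 0.18 in upf1 (0.0872, percentile 6.42). With median scaling CLN3 fell by 1.27 in WT (adjusted p = 0.0105) and by 0.98 in upf1 (0.0394), so that its direction depends on the scaling. CDC28 was at 11.1 and 18.2, 44.1 and 22.2, 14.7 and 8.69, and 50.1 and 58.2 in the order of groups used above. CHX raised CDC28 by 1.04 ± 0.40 in WT (limma adjusted p = 0.0489) and 2.07 ± 0.40 in upf1 (0.00626), but the WT call is not firm. It was lost without WT DMSO replicate 1 (change of 0.73, adjusted p = 0.215), without WT CHX replicate 1 (0.58, 0.285) and without either upf1 CHX library (0.0784 and 0.0783). It was also lost with a pseudocount 4 times lower (adjusted p = 0.0571), no filter on low values (0.0552), the replicate block (0.0604) and only the 4 libraries compared (0.0979). All 3 CLN genes were thus in the lower 15.9% of protein-coding genes by CHX change in both strains.

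**Figure D4:**
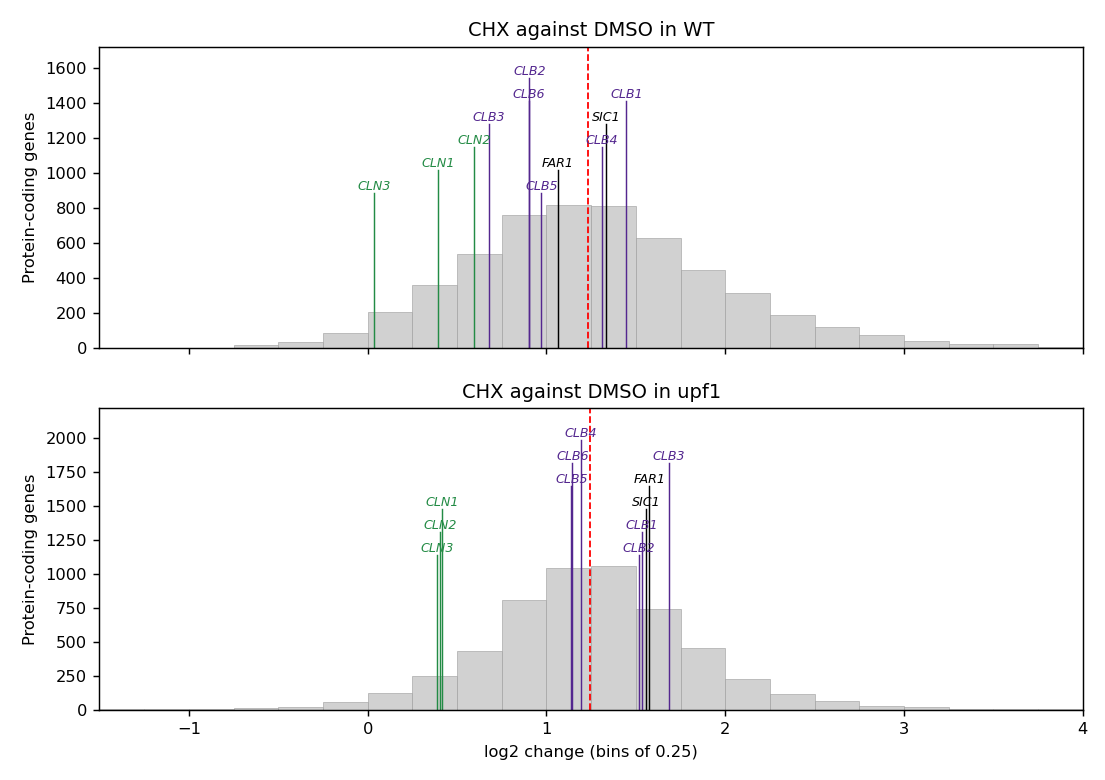
Number of protein-coding genes (y axis) by log2 change with CHX (x axis, bins of 0.25) in WT above and upf1 below, on the authors' scaling, with the 10 genes and CLN3 marked. The dashed line is the median, 1.23 in WT and 1.25 in upf1; CLN1, CLN2 and CLN3 lie between 0.04 and 0.59 in WT and between 0.39 and 0.41 in upf1, and all 3 are negative with median scaling.

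Among 8 lists of genes that work around the cyclins, the share higher with CHX on the authors' scaling lay on either side of the background, which was 69.8% of features in WT and 64.1% in upf1. That background takes in features that do not code for protein. Of the 5517 protein-coding genes tested, 3779 were higher in WT and 4083 in upf1, a larger share than that of all features in upf1. Counting a gene once in each list, 96 of 149 entries (64.4%) rose in WT and 116 (77.9%) in upf1. SBF and MBF targets were below the background in both strains, with 17 of 32 (53.1%) in WT and 19 (59.4%) in upf1, and medians of 1.02 and 0.95 beside the protein-coding medians of 1.23 and 1.25. KRE6, a glucan synthesis gene among them, rose by 1.53 ± 0.23 in WT (limma adjusted p = 0.00145). Of 18 genes of the CLB2 cluster, 13 (72.2%) rose in WT and 15 (83.3%) in upf1, among them the chitin synthase gene CHS2 by 1.70 ± 0.24 in WT. Of 19 M/G1 genes, a class transcribed as cells leave mitosis, 16 (84.2%) rose in WT and 19 (100%) in upf1, with EGT2, a cell separation gene, at 2.47 ± 0.21 in WT. Among 20 subunits of the ubiquitin ligases that destroy cyclins and Sic1, 15 (75%) rose in WT and 17 (85%) in upf1. They included CDC4, the SCF subunit that binds Sic1, at 1.65 ± 0.25 in WT, and the anaphase-promoting complex gene CDC26 at 2.33 ± 0.29. Of 22 cell cycle transcription factors, 16 (72.7%) rose in WT and 20 (90.9%) in upf1, and of 18 genes of Pho85 and the transcriptional CDKs, 9 (50%) and 16 (88.9%). The 11 mitotic exit regulators gave 5 (45.5%) in WT, below the background, and 7 (63.6%) in upf1, about at the background of 64.1%. The 9 genes of the CDK core were below it in both strains, with 5 (55.6%) and 3 (33.3%). No difference between a list and the background was tested. None of these lists held a gene that was called lower with CHX on the authors' scaling. With median scaling each had 0 to 4 calls in WT and 0 to 3 in upf1, counted in either direction. Over all features that scaling called 10.3% in WT and 3.2% in upf1.

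Between the strains in DMSO 10 of the 149 entries (6.71%) were called, all higher in upf1, against 15.1% of all features. In CHX limma called 0, against 0.0866% of features, and voom called between 0 and 7 in each list, against 12.2%. DOC1, a subunit of the anaphase-promoting complex, gave the smallest p of the 10, at 52.8 ± 6.83 (SD, n = 2) in upf1 and 13.1 ± 3.69 (SD, n = 2) in WT (limma adjusted p = 0.00647). Without upf1 DMSO replicate 1 these calls were lost, in a fit that also called far fewer features over the whole table.

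The protein-coding genes nearest to CLN2 and CLB2 in their pattern over the 8 libraries were found by the root mean square distance of centred log2 values. Nearest to CLN2 among 3287 genes were YBL036C at 0.113, CCT5 at 0.130 and TIF5 at 0.140. Nearest to CLB2 among 3623 genes were EFR3 at 0.0992, IRA2 at 0.0999 and RPS30B at 0.108.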

How the data were processed

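The authors deposited 1 table of normalized densities (a signal per feature, with neither library factors nor lengths stated) from Terminator-digested RNA, with a column for each of 8 libraries. The submitters' processing notes name DESeq2, featureCounts 2.0.0, HISAT2 2.2.0, Trim Galore and the R64 build, with no role given. Whole reads were recovered by finding, per feature, a length at which every value is a whole read number times a library factor. 100% of positive values came out whole within 0.001 reads, and 0 of 300 features altered by 3% did. Recovered lengths exceeded the RefSeq coding span for 85.8% of protein-coding genes. The WT libraries held 2395118 and 1311198 recovered reads with DMSO and 2681751 and 4689421 with CHX, and the upf1 libraries 2950634 and 2170569 with DMSO and 1790679 and 5691404 with CHX. The replicates' log2 values correlated at 0.935 to 0.954 across features.

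Densities per kb (scaled reads per kb) were tested as log2(value + 2) with limma 3.58.1 in R 4.3.3, for features with a mean of at least 2. Ribosomal RNA rows were left out, and 1 fit held all 8 libraries (4 residual and 3.60 prior degrees of freedom, variance trend). Fold changes on that scale understate those of low genes. P-values, all two-sided, were adjusted by Benjamini-Hochberg over 10392 features, with a threshold of 0.05. Alternatives were another pseudocount or filter, median and quantile scaling, voom in limma on recovered reads, a replicate block, only the 4 libraries compared, and each library left out. Sequences were read with Python 3.11.15 and Biopython 1.88 from the RefSeq R64 genome. The members and gene lists were chosen with earlier results of these data known. Named genes are the members, UPF1, HIS3, CLN3, CDC28, per list the 2 of smallest p for the CHX change of WT and for the upf1 change in DMSO (not all printed; 1 is not reported here), and the 3 nearest to CLN2 and CLB2.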

Additional observations from a re-analysis of the deposited data

How the results depend on the processing

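On the log2 scale and with limma throughout, the CHX calls of the 10 genes went from 7 in WT to 4 (7 of the genes tested) with a filter 5 times higher, 0 with median scaling and 1, CLN1 as lower (adjusted p = 0.048), with quantile normalization. Without 1 library of the groups compared, fewer members were called in each strain, and so were fewer of all features. From 8 in upf1 the members' calls went to 5 (7 tested) with the higher filter and 0 with either scaling. Over all features the higher filter called 4790 higher and 9 lower of 6002 in WT, and 4562 and 15 in upf1. Quantile normalization called 628 higher and 551 lower of 10392 in WT, and 186 and 120 in upf1. Both pseudocounts, no filter, voom and the fit of only the 4 libraries gave 5 to 7 in WT and 8 in upf1. Between the strains and for the interaction all alternatives gave 0, as in the report. With the replicate number as a block there were 6, 8, 0, 0 and 0 calls. Deviations of same-numbered libraries correlated at -0.044 to 0.117, so the numbers were not taken to pair libraries. Over all features, voom called 1200 higher and 67 lower between the strains in CHX, against 5 and 4. The fit of only 4 libraries called 0 between the strains in DMSO, against 1565.

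Under median scaling, the CHX changes in WT that turned direction were CLN1 -0.92, CLN2 -0.72, CLB2 -0.41, CLB3 -0.63, CLB4 -0.0025, CLB5 -0.34, CLB6 -0.41, FAR1 -0.25, CLN3 -1.27 and CDC28 -0.27. With it, the CHX changes in upf1 that turned direction were CLN1 -0.95, CLN2 -0.97, CLB4 -0.18, CLB5 -0.23, CLB6 -0.22 and CLN3 -0.98. With it, the upf1 changes in DMSO that turned direction were CLN1 -0.10, CLB1 -0.24, CLB4 -0.50, CLB5 -0.092, CLB6 -0.055, SIC1 -0.068, FAR1 -0.52 and CDC14 -0.22. With it, the upf1 changes in CHX that turned direction were CLN1 -0.14, CLN2 -0.044, CLB1 -0.21, CLB2 -0.15, CLB4 -0.68 and FAR1 -0.068. Under quantile normalization, the CHX changes in WT that turned direction were CLN1 -1.19, CLN2 -0.89, CLB1 -0.012, CLB2 -0.56, CLB3 -0.90, CLB4 -0.30, CLB5 -0.64, CLB6 -0.73, SIC1 -0.13, FAR1 -0.41, CLN3 -1.29 and CDC28 -0.44. With it, the CHX changes in upf1 that turned direction were CLN1 -0.86, CLN2 -0.93, CLB4 -0.047, CLB5 -0.12, CLB6 -0.095 and CLN3 -0.94. With it, the upf1 changes in DMSO that turned direction were CLN1 -0.17, CLB1 -0.28, CLB4 -0.63, CLB5 -0.17, CLB6 -0.18, SIC1 -0.072, FAR1 -0.54, BFA1 -0.031 and CDC14 -0.16. With it, the upf1 changes in CHX that turned direction were CLB1 -0.022 and CLB4 -0.38. Leaving out 1 library, the log2 change ranged from -0.012 (without WT CHX replicate 1) to 0.088 for CLN3 with CHX in WT. In DMSO, upf1 against WT ranged from -0.29 to 0.14 for CLB2 (0.070 without WT DMSO replicate 2, 0.14 without upf1 DMSO replicate 2), from -0.80 to 0.26 for CLB3 (above 0 without upf1 DMSO replicate 2) and from -0.15 (without upf1 DMSO replicate 1) to 0.40 for CLB4. In CHX it ranged from -0.19 (without WT CHX replicate 2) to 0.21 for CLB4, with -0.044 without upf1 CHX replicate 2. The shift that median scaling takes from every gene is given in the report; the cause of the other turns was not tested. Of 1324 values of single genes, 1072 kept direction and side of the threshold, 177 lost the call, 9 gained it and 66 turned. The tally is no rate of robustness. Leaving out a library outside the comparison cannot alter the log2 change, and genes never called count as kept. Where a library was left out, its partner was assumed to vary like the other groups. An edgeR count test on the recovered reads was not run, since the densities depend on lengths that are not stated. With 3 to 285 reads per gene and group, changes of low genes such as CLB6 and CLB4 are the least certain.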
